A study of Mus musculus with 16 samples.

Results

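The effect of a single swim on astrocyte ribosome-bound RNA was described in 8 immunoprecipitated (IP) libraries, 4 from naïve and 4 from stressed mice, out of 16 libraries in all. The mice carried Aldh1l1CreERT2 and RiboTag alleles on a C57BL/6J background, were 3 months old and had received tamoxifen, in the naïve as in the stress group. Both groups held males and females. Stressed mice swam for 20 min and rested for 90 min in the home cage, while naïve mice stayed in the home cage. Tissue was the somatosensory cortex. In RiboTag mice a Cre recombinase, here driven by the astrocyte gene Aldh1l1 and switched on by tamoxifen, adds an HA tag to the ribosomal protein Rpl22, so that tagged ribosomes and the mRNA on them can be pulled down with an antibody. The remaining 8 libraries (INPUT, 4 naïve and 4 stress) came from the cleared lysate of all cortical cells and are used here only for comparison. Cells of other types are not fully removed by the pull-down. As in other bulk RNA, a higher level per cell and a larger share of the RNA from one cell type cannot be told apart.

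Astrocytes supply neurons with lactate from glycogen and glucose, clear glutamate and potassium, and carry receptors for noradrenaline and for the glucocorticoid hormones that are released in stress. Glucocorticoids act through a nuclear receptor that switches on genes within the hour, among them inhibitors of growth factor and inflammatory signalling. Receptor signalling through cAMP, calcium or ERK induces immediate early genes and their feedback inhibitors on the same time scale.

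Levels are CPM, the reads on a gene per 1000000 reads on all genes of the library, which are not divided by gene length and so are compared between groups and not between genes. Of 24060 genes in the files, 12501 had a mean above 1 CPM over the 8 IP libraries. Differences are log2 fold changes of stress over naïve on log2(CPM + 0.1), tested with limma and called at a Benjamini-Hochberg adjusted p under 0.05. Of the 12501 genes, 27 were higher (0.216%) and 28 were lower (0.224%) in stress IP. The Sox genes (Sox2, Sox9 and Sox21) and the Wnt pathway genes (Axin2 and Fzd1) among them are set aside, which leaves 26 genes that rose and 24 that fell. A complete separation of all 4 stress from all 4 naïve values was found in 298 genes upward (2.38% of genes) and in 327 downward (2.62%), the 50 genes included.

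IP libraries held 20280077 to 25814364 reads on genes, and 3 reads were at most 0.148 CPM. Values are given in the order naïve replicates 2, 8, 11 and 13, and stress replicates 4, 5, 6 and 15. By Xist (496 to 665 CPM), naïve replicates 2 and 8 and stress replicates 4 and 5 came from females. The other IP libraries, replicates 11 and 15 among them, had at most 0.456 CPM of Xist, expressed the Y-linked gene Ddx3y and came from males. Naïve replicate 11 stood apart from the other naïve libraries on the side of stress. It is kept in the naïve group as labelled and enters every naïve mean unless stated, and whether libraries were exchanged or its mouse had been disturbed was not tested. It was the highest naïve library in 19 of the 26 genes that rose and the lowest in 15 of the 24 that fell, whereas over all 12501 genes it was the highest in 21.0% and the lowest in 41.7%. Without it, 122 genes were called (76 higher, 46 lower), including 54 of the 55. Stress replicate 15 was the lowest stress library in 15 of the 26 and the highest in 11 of the 24, and 101 genes were called without it. Both libraries were singled out on these same values, so leaving either out favours larger differences. Smaller adjusted p values without them are descriptions and not support. With any one of the other 6 libraries left out, 17 to 24 genes were called. Of the 50 genes described, 49 were also called without naïve replicate 11 (Arid5a was not, with an adjusted p of 0.06) and all 50 without stress replicate 15. Naïve replicate 2 held 130 CPM of summed choroid plexus markers, against at most 12.96 CPM in the other 7 IP libraries.

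The labelled cell type was checked on 12 astrocyte markers, which summed to 120199 to 123572 CPM in naïve IP and 113501 to 128234 CPM in stress IP, against 7888 to 9080 CPM in INPUT. None of the 12 was called. Summed neuronal markers (12 genes) ranged from 738 to 932 CPM in naïve IP and from 603 to 877 CPM in stress IP. None was called, and 11 of 12 were lower after stress (6383 of 12501 over all genes). The lowest naïve sum lay in replicate 8 and the highest stress sum in replicate 15. Stress replicate 15 also had the highest stress sums of precursor, microglial, and endothelial and mural markers. The largest members of its precursor and vascular sums were Vcan (29.5 CPM) and Pdgfrb (134 CPM). The part of these cells in the results was not tested. Oligodendrocyte, precursor, microglial, endothelial and mural, and choroid plexus markers likewise had no called gene. Of the 7 marker sums, that of endothelial and mural genes had the smallest p (163.7 to 218 CPM in naïve and 135.9 to 169.6 CPM in stress IP, two-sided exact permutation test, p = 0.086, 0.60 adjusted over the 7 sums), where 4 against 4 libraries can reach 0.029. Pdgfrb alone held 132 of the mean 182 CPM of this sum in naïve IP, against 25.4 CPM in naïve INPUT. Cnp, in the oligodendrocyte sum, was likewise higher in naïve IP (148 CPM) than in naïve INPUT (115 CPM). Kcnj13, in the choroid plexus sum, was also higher in naïve IP (3.21 CPM) than in naïve INPUT (1.45 CPM). Vcan, in the precursor sum, was higher in stress IP (24.3 CPM) than in stress INPUT (20.6 CPM), though not in the naïve libraries (18.1 and 20.4 CPM). Whether these sums follow their cell types in IP was not tested.

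Increases were larger than decreases. Of the 26 genes that rose, 11 did so by at least 2-fold, with a median log2 fold change of 0.89, while none of the 24 that fell reached 2-fold, with a median of −0.61. The plot of the leading genes shows the 12 largest changes in each direction by library.

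**Figure D1:**
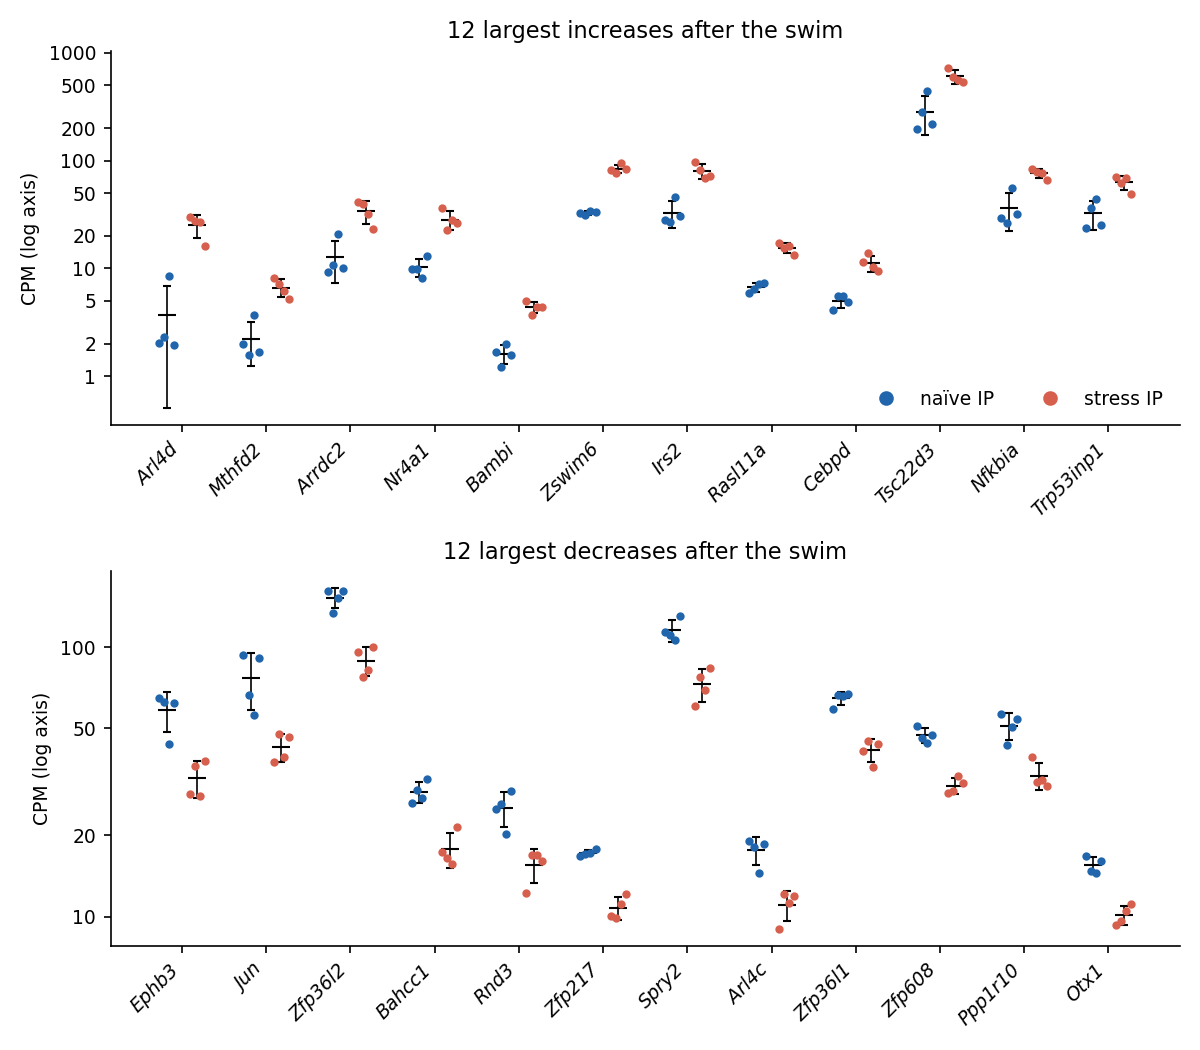
CPM (log axis) of the 12 largest increases (top) and the 12 largest decreases (bottom) in the 4 naïve IP (blue) and 4 stress IP (orange) libraries. Points are libraries in the order of their replicate numbers, and black bars are the mean and SD. In all 24 genes the colours do not overlap. In the top panel the third naïve point, replicate 11, lies nearest to the stress values in Arl4d, Mthfd2, Arrdc2, Irs2, Tsc22d3, Nfkbia and Trp53inp1. The same holds in Bambi, and by little in Zswim6 and Cebpd. In the bottom panel replicate 11 lies nearest to the stress values in Ephb3, Jun, Rnd3, Spry2, Arl4c, Zfp608 and Otx1.

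Small GTPases and their effectors changed in both directions. These proteins switch between GTP and GDP forms to direct actin, adhesion and membrane traffic. Of 29 tested, 5 rose (among them Arl4d, Rasl11a, Rhob and Gem, 17.2% against 0.216% of all genes) and 2 fell (Rnd3 and Arl4c, 6.90% against 0.224%). The median log2 fold change of the list was 0.00. Like the other lists below, it was drawn up with earlier results of these data known, so its shares are descriptions only. Without naïve replicate 11, 8 rose and 3 fell, without stress replicate 15 the counts were again 5 and 2, and without any one of the other 6 libraries 2 or 3 rose and none fell. With limma-voom 5 rose and none fell (adjusted p = 0.0503 for Arl4c and 0.0539 for Rnd3).

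Arl4d, an ARF-like GTPase of the plasma membrane, had the largest fold change of the 50 genes. It was measured at 2.06, 2.33, 8.499 and 1.94 CPM in naïve IP and at 29.97, 27.8, 26.7 and 16.2 CPM in stress IP. Naïve replicate 11 was well above the other naïve libraries and still below every stress library. The mean rose 7.95-fold on the log2 scale used (log2 fold change 2.99, SE 0.39, adjusted p = 0.0065), and without naïve replicate 11 the log2 fold change was 3.48 (adjusted p = 7.44e-06). Its paralog Arl4c went the other way, with 19.1, 18.2, 14.5 and 18.6 CPM in naïve and 9.01, 12.1, 11.2 and 11.9 CPM in stress IP (log2 fold change −0.67, SE 0.12, adjusted p = 0.0406). The groups did not overlap in either gene.
Promoter windows of both genes are shown because the paralogs moved in opposite directions, together with those of Nr4a1 and Jun, a pair of immediate early genes that also moved in opposite directions. The windows are 300 bases around the RefSeq start (assembly GRCm38.p6), 5′ to 3′ on the gene's strand, with TGACG, the core of the cAMP response element, or CGTCA where it lies on the other strand, in capitals.
Arl4d, chr11:101665291-101665590 on the plus strand: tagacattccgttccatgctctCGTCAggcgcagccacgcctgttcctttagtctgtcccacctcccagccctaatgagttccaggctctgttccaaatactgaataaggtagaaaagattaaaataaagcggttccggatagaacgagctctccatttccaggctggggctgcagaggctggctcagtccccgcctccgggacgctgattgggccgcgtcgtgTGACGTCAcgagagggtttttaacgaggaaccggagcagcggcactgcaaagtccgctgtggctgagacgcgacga
Arl4c, chr1:88702142-88702441 on the minus strand: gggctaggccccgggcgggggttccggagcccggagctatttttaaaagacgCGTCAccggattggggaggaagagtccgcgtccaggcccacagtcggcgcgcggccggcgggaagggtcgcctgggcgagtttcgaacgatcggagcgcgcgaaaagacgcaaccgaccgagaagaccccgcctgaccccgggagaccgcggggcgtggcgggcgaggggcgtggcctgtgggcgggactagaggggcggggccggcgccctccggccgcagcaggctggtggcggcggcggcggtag
Nr4a1, chr15:101266596-101266895 on the plus strand: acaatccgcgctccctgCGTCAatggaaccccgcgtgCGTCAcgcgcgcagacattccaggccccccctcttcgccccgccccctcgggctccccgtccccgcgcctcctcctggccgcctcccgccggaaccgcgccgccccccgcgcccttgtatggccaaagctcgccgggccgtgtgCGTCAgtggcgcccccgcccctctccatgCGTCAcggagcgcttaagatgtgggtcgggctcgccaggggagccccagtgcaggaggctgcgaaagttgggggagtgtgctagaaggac
Jun, chr4:95052173-95052472 on the minus strand: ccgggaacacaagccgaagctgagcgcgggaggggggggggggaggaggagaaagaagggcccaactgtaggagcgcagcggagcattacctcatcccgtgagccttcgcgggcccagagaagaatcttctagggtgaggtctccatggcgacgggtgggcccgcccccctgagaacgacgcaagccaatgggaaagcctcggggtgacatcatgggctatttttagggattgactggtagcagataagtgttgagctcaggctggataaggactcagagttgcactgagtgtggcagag
Arl4d held 3 such cores, a pair of which overlap to form the palindrome TGACGTCA. Nr4a1 held 4, Arl4c 1 and Jun none. A promoter window was at hand for 39 of the 55 called genes and for 9452 of all genes tested. Searched on both strands, TGACG was present in 8 of 19 genes that rose and in 6 of 20 that fell, against 35.9% of all genes, and the palindrome in 1 of 19 (Arl4d) and 1 of 20 (Irf2bpl), against 3.65%. These counts lie near the shares of all genes, and matches of letters are not sites of binding.

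Rhob, an endosomal GTPase, had 119, 134, 203 and 142 CPM in naïve and 305, 287, 298 and 212 CPM in stress IP (log2 fold change 0.90, SE 0.15, adjusted p = 0.0322). Rnd3, an atypical GTPase that favours the loss of actin stress fibres, had 25.2, 26.1, 20.3 and 29.2 CPM and 12.3, 16.9, 16.98 and 16.1 CPM (log2 fold change −0.69, SE 0.13, adjusted p = 0.0472). Neither pair of groups overlapped, although the highest naïve value of Rhob (replicate 11) was close to its lowest stress value (replicate 15). Rasl11a, a Ras-like protein of the nucleolus, had the smallest adjusted p of the GTPases named. It was at 5.97, 6.45, 7.17 and 7.28 CPM in naïve and 17.3, 15.6, 16.02 and 13.3 CPM in stress IP (log2 fold change 1.20, SE 0.11, adjusted p = 0.00144). Like Arl4d, it was called in all 8 fits that left out a library. Gem, which binds calcium channel subunits, rose from 10.7 ± 0.724 CPM to 17.2 ± 1.995 CPM (mean ± SD, n = 4 each). Nedd9, an adhesion scaffold, had non-overlapping values and missed the threshold (53.6 ± 6.06 CPM against 77.8 ± 10.2 CPM, adjusted p = 0.0526). Rhou, a relative of Cdc42, overlapped only through naïve replicate 11 (82.7 CPM) and had an adjusted p of 0.114, or 1.03e-04 without that library. Its adjusted p reached 0.393 without another library.

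**Figure D2:**
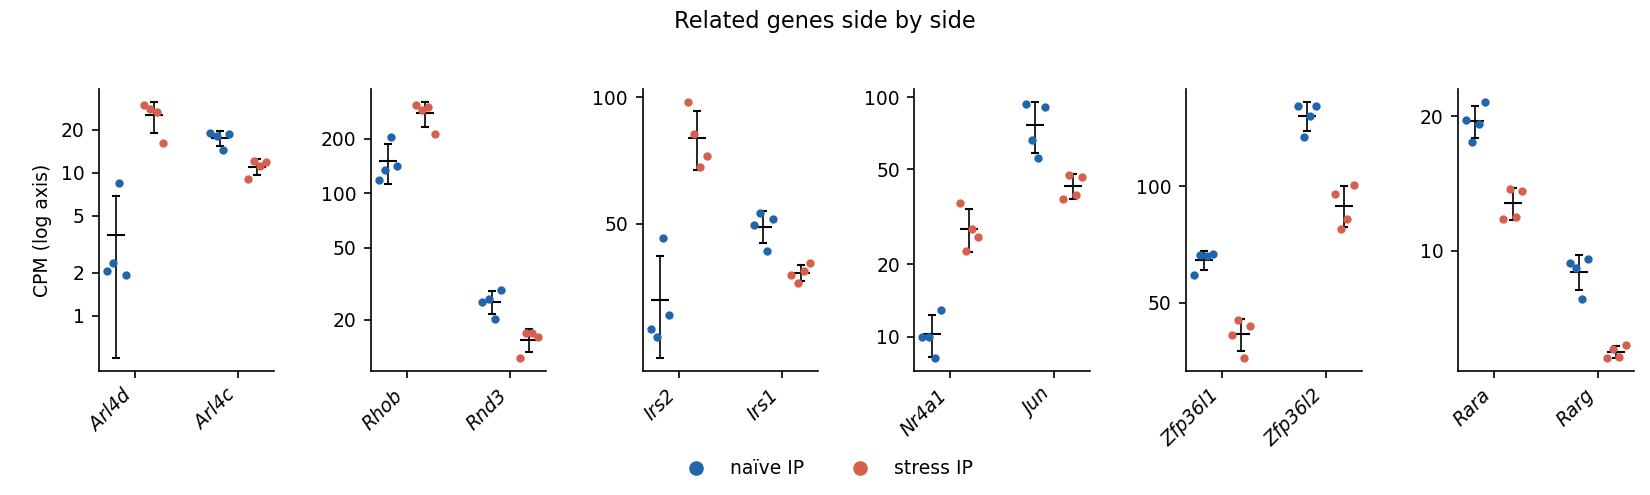
CPM (log axis, a separate scale in each panel) of pairs of related genes in the naïve IP (blue) and stress IP (orange) libraries, with the mean and SD in black. Arl4d and Arl4c, Rhob and Rnd3, Irs2 and Irs1, and Nr4a1 and Jun had fold changes of opposite sign, whereas Zfp36l1 and Zfp36l2, and Rara and Rarg, were lower together. All but Irs1 passed the adjusted threshold, although Arl4c, Rnd3, Jun and Rarg did not pass with limma-voom (adjusted p = 0.0503 to 0.0539).

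Genes known as targets of the glucocorticoid receptor were mostly higher after the swim. Of 21 tested, 5 rose (Arrdc2, Cebpd, Tsc22d3, Nfkbia and Tiparp) and none fell, 23.8% of the list against 0.216% of all genes. A higher mean after stress was found in 19 of the 21, where 6118 of 12501 genes had one, and the median log2 fold change was 0.50. The list was drawn up with results of these data known. It shares members with other lists below, among them those of alpha-arrestins, C/EBP factors, NF-κB inhibitors, FGF and ERK feedback, and p53 targets. Without naïve replicate 11, 11 of the 21 rose (76 of 12495 over all genes) and all 21 had a positive fold change (5486 of 12495 over all genes). Without stress replicate 15, 7 rose, and without any one of the other 6 libraries only 1 did.
Tsc22d3 encodes GILZ, a glucocorticoid-induced inhibitor of inflammatory signalling. It measured 195, 282, 442 and 218 CPM in the naïve and 724, 589.9, 561 and 529 CPM in the stress libraries (log2 fold change 1.14, SE 0.21, adjusted p = 0.0387). Nfkbia, the inhibitor that holds NF-κB in the cytoplasm, stood at 29.3, 26.4, 56.04 and 32.0 CPM and 83.98, 78.8, 75.99 and 65.9 CPM (log2 fold change 1.14, SE 0.19, adjusted p = 0.0248). In both genes the groups did not overlap, and naïve replicate 11 lay between the other naïve libraries and the stress libraries. Tiparp, a mono-ADP-ribosyltransferase, rose from 92.8 ± 9.39 CPM to 139 ± 21.5 CPM. The cell cycle inhibitor Cdkn1a and the EGF receptor inhibitor Errfi1 had non-overlapping values and missed the threshold, with log2 fold changes of 1.96 (adjusted p = 0.0629) and 0.82 (adjusted p = 0.0541). Both passed without naïve replicate 11 (adjusted p = 0.00351 and 6.38e-04), and their adjusted p reached 0.243 and 0.212 without another library. The hormone-responsive factor Klf15 overlapped through naïve replicate 11 alone, with 126 CPM in it (adjusted p = 0.157, or 3.18e-04 without it). Without another library the adjusted p of Klf15 reached 0.471.

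Alpha-arrestins are adaptors that send membrane proteins such as glucose transporters and receptors to ubiquitin ligases. Of 5 tested, only Arrdc2 rose (20.0% against 0.216% of all genes). It was at 9.30, 10.8, 20.6 and 10.03 CPM in naïve and 40.9, 39.3, 31.7 and 23.3 CPM in stress IP (log2 fold change 1.45, SE 0.24, adjusted p = 0.0248). Txnip, the family member that limits glucose uptake, had 8.42, 8.82, 27.96 and 7.86 CPM and 36.04, 31.5, 44.6 and 20.5 CPM. Its groups overlapped because naïve replicate 11 lay above stress replicate 15, and its adjusted p was 0.154, or 7.02e-04 without naïve replicate 11. Without another library the adjusted p of Txnip reached 0.465. Arrdc3 was at 19.3 ± 2.21 CPM and 24.6 ± 1.65 CPM, without overlap but short of the threshold (adjusted p = 0.218). The list had 2 called genes without naïve replicate 11, 1 without stress replicate 15 and 0 without any one of the other 6 libraries.

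The 5 C/EBP transcription factors tested, which act in differentiation, metabolism and acute responses, all had positive fold changes (6118 of 12501 over all genes). Cebpd rose, from 4.11, 5.51, 5.60 and 4.84 CPM in naïve to 11.4, 13.9, 10.4 and 9.44 CPM in stress IP (log2 fold change 1.15, SE 0.15, adjusted p = 0.00539). It was called in all 8 leave-one-out fits, and naïve replicate 11 did not stand apart from replicate 8. Cebpa was at 14.1, 15.5, 32.4 and 16.5 CPM and 36.2, 43.98, 35.1 and 34.4 CPM and missed the threshold (log2 fold change 1.00, adjusted p = 0.0858). Cebpb, near the lower limit of the genes tested, was at 1.13, 0.896, 1.92 and 1.201 CPM and 4.28, 2.12, 2.42 and 3.46 CPM (log2 fold change 1.19, adjusted p = 0.131). In the 3 genes the groups did not overlap. Without naïve replicate 11 the 3 genes passed, whereas without another library the adjusted p of Cebpa and Cebpb reached 0.318 and 0.393. Among 20 NF-κB factors and regulators, Nfkbia was the only one called (5.00% against 0.216% of all genes), with a list median of 0.08. This list had 1 called gene without naïve replicate 11 or stress replicate 15, and 0 or 1 without any one of the other 6 libraries. The receptor-proximal kinase Irak2 had non-overlapping values (149.7 ± 8.59 CPM against 194 ± 19.5 CPM) and an adjusted p of 0.076.

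Single regulators of metabolism rose, and no enzyme of glucose breakdown passed the threshold. Irs2, the docking protein that couples insulin and IGF receptors to PI3-kinase, measured 28.05, 26.9, 46.1 and 30.4 CPM in the naïve and 97.5, 81.95, 68.4 and 72.5 CPM in the stress libraries (log2 fold change 1.30, SE 0.16, adjusted p = 0.00489) and was called in all 8 leave-one-out fits. Irs1, its paralog, stood lower after stress in every library, at 49.7, 52.9, 43.1 and 51.3 CPM and 37.8, 36.2, 38.7 and 40.2 CPM, without passing the threshold (log2 fold change −0.36, SE 0.08, adjusted p = 0.0798). Leaving out naïve replicate 11, where Irs1 was lowest among the naïve libraries, brought its adjusted p to 0.00935. Leaving out another library brought it to as much as 0.318. The other 22 genes of insulin and IGF signalling tested were not called (4.17% of the list called, against 0.216% of all genes), and the list median was −0.08.
Ppp1r3g, a subunit that brings protein phosphatase 1 to glycogen and favours its synthesis, had 105, 106, 124 and 102 CPM in naïve IP and 156, 177, 142 and 151 CPM after stress (log2 fold change 0.52, SE 0.08, adjusted p = 0.0178). Ppp1r3c, another such subunit, was at 534 ± 28.1 CPM and 649 ± 38.8 CPM (mean ± SD, n = 4 each), without overlap and short of the threshold (adjusted p = 0.0876). Ppp1r3g was the only one of 23 glycogen genes to be called (4.35% against 0.216% of all genes, list median 0.03). The count was 1 without naïve replicate 11 or stress replicate 15, and 0 or 1 without any one of the others. None of 29 genes of glycolysis and lactate transport was called (list median −0.01).
Mthfd2, a mitochondrial enzyme of one-carbon metabolism, was among the least abundant of the called genes, with 35 to 182 reads per library. It measured 2.01, 1.57, 3.68 and 1.67 CPM in the naïve and 8.12, 7.15, 6.16 and 5.18 CPM in the stress libraries (log2 fold change 1.60, SE 0.25, adjusted p = 0.0178). Mat2a, which makes the methyl donor S-adenosylmethionine, rose from 103 ± 8.105 CPM to 154 ± 17.5 CPM (log2 fold change 0.57, SE 0.09, adjusted p = 0.0167). These were the called members of 27 ATF4 targets and enzymes of serine and one-carbon metabolism (7.41% against 0.216% of all genes), whose median was 0.04. The count was 3 without naïve replicate 11, 2 without stress replicate 15 and 0 without any one of the other 6 libraries. None of 21 genes of the unfolded protein response was called. Herpud1, an endoplasmic reticulum protein, was nearest among them (log2 fold change 0.64, adjusted p = 0.0858).

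Immediate early transcription factors, the first genes to respond to calcium, cAMP or growth factors, moved in both directions. Of 19 tested, Nr4a1 rose and Jun fell (5.26% each, against 0.216% and 0.224% of all genes), and the median was −0.12. Nr4a1, an orphan nuclear receptor, had 9.99, 9.99, 8.11 and 12.9 CPM in naïve IP and 36.1, 22.7, 28.02 and 26.1 CPM after stress (log2 fold change 1.45, SE 0.16, adjusted p = 0.00333). Here naïve replicate 11 was the lowest of its group, away from the stress libraries. Nr4a3 was at 0.832, 1.34, 0.901 and 1.12 CPM and 2.498, 1.87, 3.29 and 2.45 CPM (adjusted p = 0.0566), without overlap, and Nr4a2 overlapped between the groups (log2 fold change 0.88, adjusted p = 0.401). Jun, an AP-1 subunit, was at 93.6, 66.4, 55.8 and 91.3 CPM and 37.6, 47.5, 39.02 and 46.4 CPM (log2 fold change −0.82, SE 0.15, adjusted p = 0.0436). The naïve values of Jun were spread more widely than the stress values, and it was called in only 2 of 8 leave-one-out fits. With limma-voom Jun was not called (adjusted p = 0.0539). In the list, 1 gene fell without naïve replicate 11, 2 without stress replicate 15 and 0 without any one of the others.

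Transcription factors of glial fate and cortical patterning other than Sox genes were mostly lower. Of 33 tested, 3 fell (Otx1, Zic2 and Pou2f1) and none rose, 9.09% of the list against 0.224% of all genes. A lower mean after stress was found in 32 of 33 (6383 of 12501 over all genes), complete separation in 12 of 33 (36.4% against 2.62%), and the list median was −0.23. Most of these differences were under the threshold one by one. The list was drawn up with earlier results of these data known, which can raise these shares. The number that fell was 6 without naïve replicate 11, 7 without stress replicate 15 and 0 or 1 without any one of the other 6 libraries.
Otx1, a homeobox factor of the forebrain, had 16.8, 14.8, 14.5 and 16.04 CPM in naïve IP and 9.28, 9.66, 10.5 and 11.2 CPM after stress (log2 fold change −0.61, SE 0.10, adjusted p = 0.0178). Zic2, a zinc finger factor of the dorsal forebrain, was at 44.3, 40.4, 51.2 and 40.02 CPM and 32.7, 28.7, 29.99 and 32.8 CPM (log2 fold change −0.50, SE 0.09, adjusted p = 0.0381). Here naïve replicate 11 was the highest naïve library, away from stress. Pou2f1, a POU factor, fell from 50.7 ± 2.02 CPM to 35.4 ± 3.73 CPM. Zic5, a paralog of Zic2 which did not pass, had non-overlapping values with a log2 fold change of −0.67 (adjusted p = 0.0969).

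The retinoic acid receptors Rara and Rarg, nuclear receptors for the vitamin A derivative, were lower. Rara had 19.6, 17.6, 19.2 and 21.5 CPM in naïve IP and 11.8, 13.8, 11.9 and 13.6 CPM after stress (log2 fold change −0.61, SE 0.09, adjusted p = 0.0178), and Rarg was at 9.398, 9.14, 7.79 and 9.57 CPM and 5.75, 6.02, 5.796 and 6.15 CPM (log2 fold change −0.59, SE 0.11, adjusted p = 0.0406). The groups did not overlap. Of 15 retinoid receptors and enzymes tested, these were the only ones called (13.3% against 0.224% of all genes), with a list median of 0.03. Both were called without naïve replicate 11 and without stress replicate 15, and 0 or 1 without any one of the other 6 libraries. With limma-voom 1 was called.

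Among receptors and inhibitors of growth factor and contact signalling, Ephb3 and Spry2 fell, and Bambi and Rgs2 rose. Ephb3, a receptor tyrosine kinase for ephrin-B ligands on neighbouring cells, had the largest fall of the 50 genes, from 64.6, 62.7, 43.5 and 61.9 CPM in naïve to 28.4, 36.1, 27.98 and 37.9 CPM in stress IP (log2 fold change −0.83, SE 0.14, adjusted p = 0.0248). Naïve replicate 11 was again the one nearest to stress. Ephb3 was the only one called of 17 Eph receptors and ephrins (5.88% against 0.224% of all genes). Of the 17, 16 were lower after stress (6383 of 12501 over all genes) and 6 were lower without overlap (35.3% against 2.62%), with a median of −0.16. The lists in these paragraphs, too, were drawn up with earlier results known. Ephb4 and Efnb2 were among these 6 (log2 fold changes −0.45 and −0.41, adjusted p = 0.145 and 0.273). Without stress replicate 15, Ephb4 passed as well (adjusted p = 0.0177), and without any one of the 6 libraries other than naïve replicate 11 and stress replicate 15 no gene of the list did.
Spry2, a feedback inhibitor of FGF and ERK signalling, had 114, 110.4, 106 and 130.0 CPM in naïve IP and 60.6, 77.2, 69.1 and 83.7 CPM after stress (log2 fold change −0.67, SE 0.10, adjusted p = 0.0149). Of 21 genes of this feedback, 17 were lower (6383 of 12501 over all genes), 5 without overlap (23.8% against 2.62%). Spry2 was the only one called (4.76% against 0.224% of all genes), and was called in 5 of 8 leave-one-out fits. Errfi1, described above, is the member that was higher without overlap. The ERK-regulated repressor Erf had a log2 fold change of −0.57 (adjusted p = 0.0969).
Bambi, a decoy receptor that blunts TGF-β and BMP signalling, rose from 1.66, 1.21, 1.997 and 1.59 CPM in naïve to 4.95, 3.698, 4.43 and 4.38 CPM in stress IP (log2 fold change 1.39, SE 0.18, adjusted p = 0.0065), on 27 to 111 reads per library. Smad6, an intracellular inhibitor of the same pathway, was lower in every stress library, at 4.31, 4.25, 4.896 and 3.29 CPM and 2.36, 2.17, 1.92 and 2.57 CPM, and missed the threshold (log2 fold change −0.86, adjusted p = 0.0579). Inhbb, which encodes an activin subunit, overlapped between the groups (log2 fold change −0.70, adjusted p = 0.150, or 0.0074 without naïve replicate 11 and up to 0.465 without another library). Bambi was the only one called of 34 genes of these pathways (2.94% against 0.216% of all genes). None of 23 Notch pathway genes was called. A lower mean after stress was found in 20 of the 23 (6383 of 12501 over all genes), with a median of −0.10. Complete separation downward was found in 1 of the 23 (4.35% against 2.62%). Notch1 was at 326, 311, 369 and 336 CPM and 205, 248, 240.2 and 321 CPM, and only stress replicate 15 reached the naïve range (adjusted p = 0.218, or 0.00719 without that library and up to 0.531 without another). Rgs2, an inhibitor of Gq signalling, was the only one called of 16 RGS genes (6.25% against 0.216% of all genes). Its level rose from 6.95 ± 0.346 CPM to 10.3 ± 0.885 CPM. Rgs2 was called in 2 of 8 leave-one-out fits, and Bambi in all 8. With limma-voom Rgs2 was not called (adjusted p = 0.0528).

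Among factors that bind mRNA and control its decay or translation, 3 fell. Zfp36l1 and Zfp36l2 bind AU-rich elements and recruit the deadenylase that starts decay. Zfp36l2 had 162, 134, 152 and 162 CPM in naïve IP and 95.7, 77.6, 82.4 and 100.5 CPM after stress (log2 fold change −0.78, SE 0.09, adjusted p = 0.00426), and Zfp36l1 was at 59.03, 66.3, 65.8 and 66.7 CPM and 41.3, 44.97, 35.8 and 43.6 CPM (log2 fold change −0.64, SE 0.08, adjusted p = 0.00503). Both were called in all 8 leave-one-out fits, and in neither did naïve replicate 11 stand apart from the other naïve libraries. Cpeb4, which binds cytoplasmic polyadenylation elements, was at 484, 426, 376 and 528 CPM and 307, 321, 311 and 301 CPM (log2 fold change −0.54, SE 0.09, adjusted p = 0.0257). The stress values of Cpeb4 lay within 20 CPM of each other, while its naïve values were spread over more than 150 CPM. Of 30 genes of mRNA decay and translational control, these 3 fell and none rose (10.0% against 0.224%), with a median of −0.06. Earlier results of these data were known when the list was drawn up. At least 2 fell whichever library was left out. Mex3a had non-overlapping values and did not pass (log2 fold change −0.56, adjusted p = 0.120).

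Growth arrest and p53 target genes moved in both directions, with 2 of 25 called higher and 1 lower (8.00% and 4.00%, against 0.216% and 0.224% of all genes). The list median was −0.02, with a positive fold change in 10 and a negative one in 15. Trp53inp1, a p53-induced autophagy factor, had 23.7, 36.2, 44.1 and 25.3 CPM in naïve IP and 70.6, 62.4, 69.4 and 49.5 CPM after stress (log2 fold change 0.99, SE 0.18, adjusted p = 0.042). Cables1, a Cdk-binding protein, rose from 87.3 ± 6.296 CPM to 119.5 ± 9.29 CPM (log2 fold change 0.45, SE 0.07, adjusted p = 0.0212). Gas1, a membrane protein of growth arrest and Hedgehog signalling, fell from 53.6 ± 4.48 CPM to 36.96 ± 4.43 CPM (log2 fold change −0.54, SE 0.09, adjusted p = 0.0332). Complete separation upward was found in 8 of 25 (32.0% against 2.38%), and 6 rose without naïve replicate 11, 4 without stress replicate 15 and 0 or 1 without any one of the other 6 libraries. Gadd45g was one of those that missed the threshold (log2 fold change 0.81, adjusted p = 0.0541). Cdkn1a, described above with the glucocorticoid receptor targets, was another and is counted in both lists.
Rrp8, a nucleolar protein of ribosomal RNA production, was at 21.5, 29.7, 38.9 and 27.8 CPM and 50.9, 52.2, 48.6 and 46.3 CPM (log2 fold change 0.78, SE 0.14, adjusted p = 0.0387). It was the only one called of 34 genes of ribosome biogenesis (2.94% against 0.216% of all genes). The count was 1 without naïve replicate 11, 2 without stress replicate 15, and 0 or 1 without any one of the others. Utp14b, another nucleolar factor, was close to the threshold (113 ± 18.5 CPM against 179.6 ± 31.8 CPM, adjusted p = 0.0512).

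**Figure D3:**
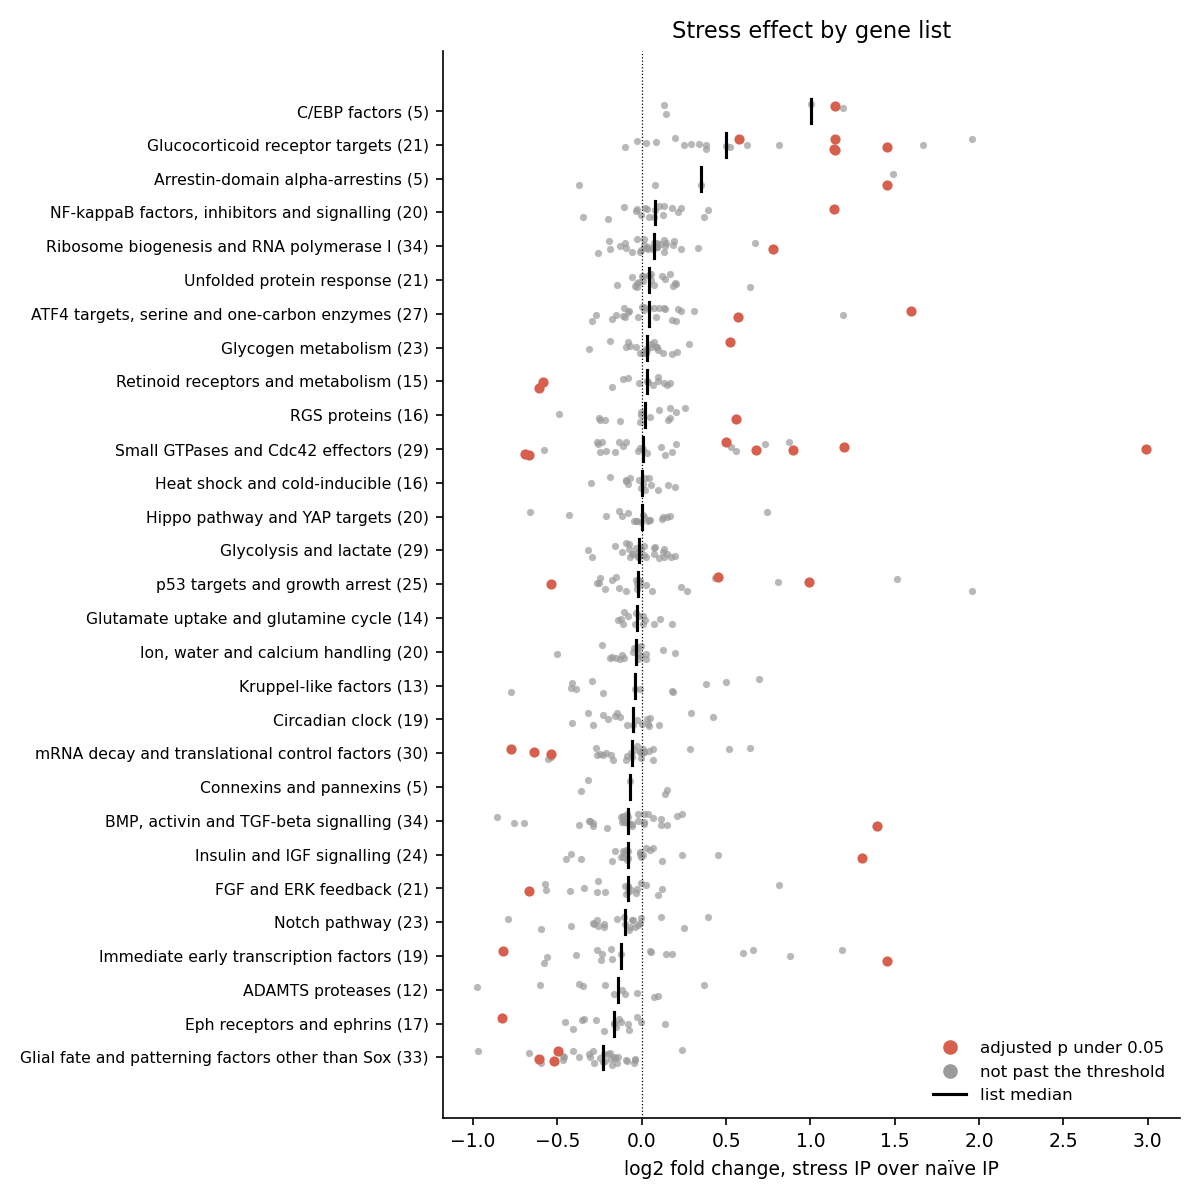
Log2 fold changes of stress over naïve IP (x axis) of the tested members of 29 gene lists (rows, with the number tested in brackets), sorted by list median (black bar). Orange points passed the adjusted threshold and grey points did not. C/EBP factors and glucocorticoid receptor targets have the highest medians (1.00 and 0.50), and glial fate and patterning factors the lowest (−0.23), while most other medians lie near 0.

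No gene passed in the lists of glycolysis, unfolded protein response, heat shock and cold-inducible genes, Krüppel-like factors, circadian clock, Notch, Hippo, ADAMTS proteases, glutamate uptake, connexins and pannexins, or ion, water and calcium handling. With a library left out, up to 3 passed in the Notch list (without stress replicate 15), up to 2 among Krüppel-like factors (without naïve replicate 11), at most 1 each among the unfolded protein response, clock, Hippo and ADAMTS genes, and 0 in the others. In the Hippo list, the secreted Yap target Cyr61 had a log2 fold change of 0.74 (adjusted p = 0.076) and the inhibitor Amotl2 one of −0.43 (adjusted p = 0.122), both without overlap between groups. Adamts1, an extracellular protease, had 48.1, 30.01, 28.5 and 48.4 CPM in naïve and 14.5, 28.1, 15.2 and 21.2 CPM in stress IP (adjusted p = 0.134). Large housekeeping families had no called gene either, with 58 cytosolic ribosomal protein genes (median 0.04), 72 genes of the respiratory chain (0.02) and 35 of the proteasome (0.06).

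Of the 50 genes, 15 belonged to none of the lists. Zswim6, which encodes a SWIM-type zinc finger protein, had the smallest adjusted p of all genes. It had 32.3, 31.3, 33.96 and 33.2 CPM in naïve IP and 81.9, 77.3, 94.3 and 83.7 CPM after stress (log2 fold change 1.36, SE 0.07, adjusted p = 4.27e-06, 95% interval 1.21 to 1.51). Its naïve values, replicate 11 included, lay within 3 CPM of each other. Leaving out any library left the log2 fold change at 1.31 to 1.40. Slc35e4, an orphan solute carrier, was at 36.3, 37.3, 47.3 and 39.3 CPM and 80.1, 88.2, 70.4 and 59.7 CPM (log2 fold change 0.89, SE 0.12, adjusted p = 0.00685). Usp53, of the ubiquitin-specific protease family, was at 162, 149.9, 181 and 167 CPM and 296, 259.6, 244 and 246 CPM (log2 fold change 0.66, SE 0.08, adjusted p = 0.00426), and the kinase Map3k19 at 48.3, 46.3, 43.6 and 54.2 CPM and 83.7, 72.7, 74.6 and 71.2 CPM (log2 fold change 0.65, SE 0.08, adjusted p = 0.00484). These 4 genes were called in all 8 leave-one-out fits. Coq10b, a coenzyme Q binding protein, rose from 12.1 ± 1.48 CPM to 20.1 ± 2.06 CPM and the RNA-binding protein Arid5a from 27.5 ± 1.24 CPM to 36.5 ± 2.85 CPM.
The other 9 fell. Bahcc1, a chromatin reader, had 26.3, 29.4, 27.5 and 32.3 CPM in naïve IP and 17.4, 16.5, 15.6 and 21.5 CPM after stress (log2 fold change −0.71, SE 0.11, adjusted p = 0.0167). Zfp217, a zinc finger repressor, was at 16.8, 17.1, 17.2 and 17.8 CPM and 10.03, 9.91, 11.1 and 12.1 CPM (log2 fold change −0.67, SE 0.09, adjusted p = 0.00685). Zfp608, of another zinc finger family, was at 50.96, 46.04, 44.1 and 47.3 CPM and 28.7, 29.1, 33.3 and 31.2 CPM (log2 fold change −0.62, SE 0.07, adjusted p = 0.00426). Ppp1r10, a nuclear subunit of protein phosphatase 1, was at 56.5, 43.3, 50.7 and 53.9 CPM and 38.9, 31.6, 32.2 and 30.4 CPM (log2 fold change −0.62, SE 0.10, adjusted p = 0.0219). In each of these 4 genes every stress library was below every naïve library. The ubiquitin ligase Trim8 fell from 208 ± 12.5 CPM to 139.8 ± 11.2 CPM, and Irf2bpl, Zbtb7a, Rreb1 and Foxn2 had log2 fold changes of −0.52, −0.47, −0.41 and −0.40.

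All 50 genes separate the groups completely, so that each stress library lies beyond the naïve mean by the choice of genes, and only the distances differ between libraries. The median distance from the naïve mean was 1.03 in stress replicate 4, 0.98 in replicate 5, 0.92 in replicate 6 and 0.73 in replicate 15 on the log2 scale for the genes that rose, and −0.65, −0.59, −0.63 and −0.52 for those that fell. Set against the mean of the other 3 naïve libraries, naïve replicate 11 had a median of 0.25 in the genes that rose, with 21 of 26 above, and of −0.12 in those that fell, with 20 of 24 below. In the other naïve libraries these medians were between −0.15 and −0.04 for the genes that rose and between −0.02 and 0.12 for those that fell. All 8 fits that left out a library called 15 of the 50 genes, namely Arl4d, Nr4a1, Bambi, Zswim6, Irs2, Rasl11a, Cebpd, Slc35e4, Usp53, Map3k19, Zfp36l2, Zfp217, Zfp36l1, Zfp608 and Trim8, and 24 were called in at most 2 of the 8.

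**Figure D4:**
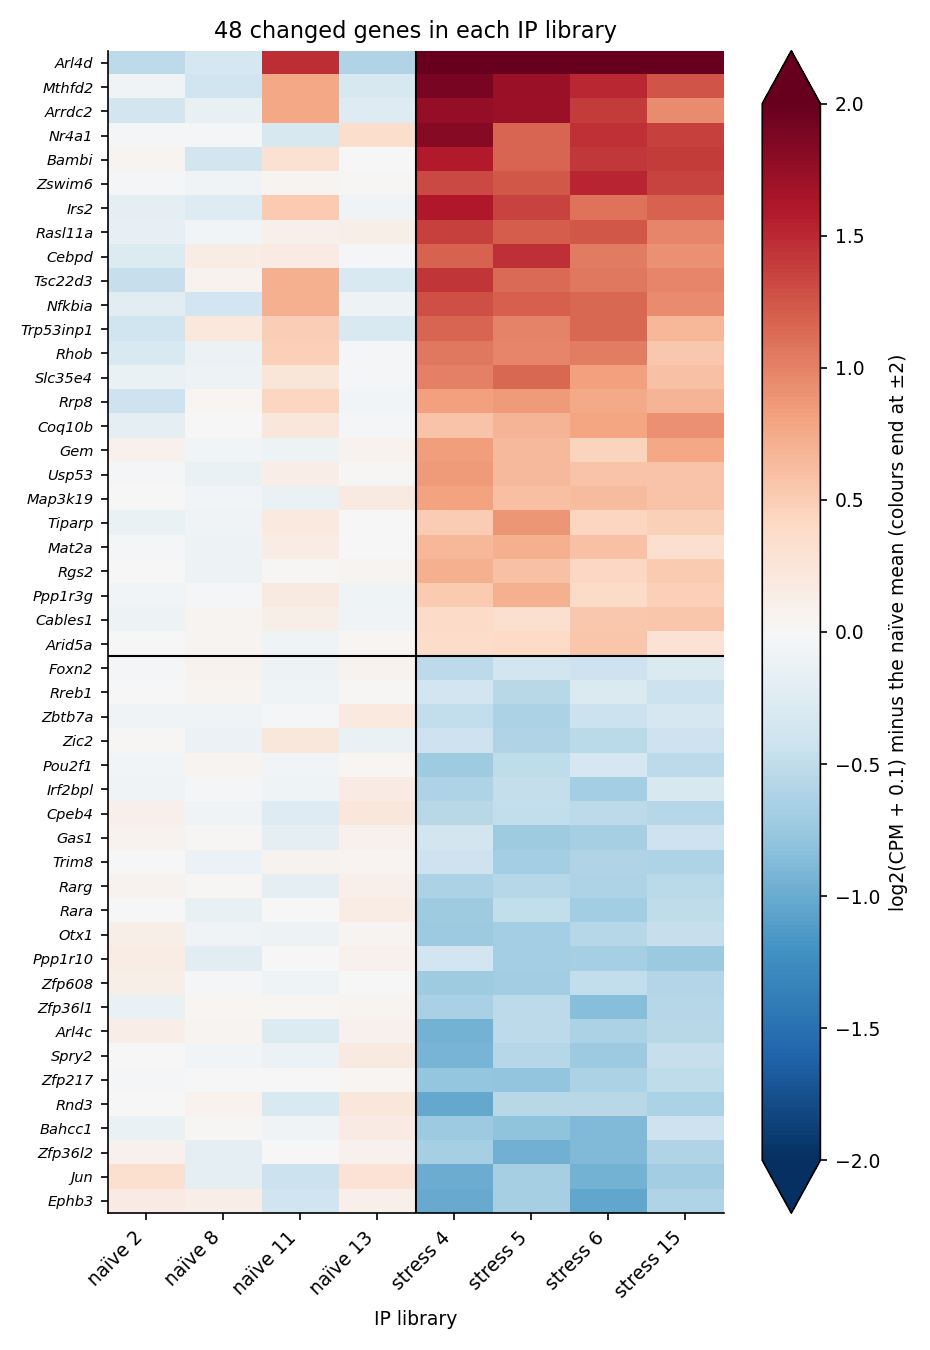
Log2(CPM + 0.1) minus the naïve mean (colour, red higher and blue lower, ending at ±2) for 25 of the 26 genes that rose and 23 of the 24 that fell (rows, by fold change) in the 8 IP libraries (columns). By the choice of genes all stress columns are red above and blue below the black line, most weakly in stress replicate 15 (medians 0.73 over all 26 genes and −0.52 over all 24), and naïve replicate 11 is red for part of the genes that rose.

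Gene structure was compared over all 27 and 28 called genes, Sox and Wnt genes included, on GENCODE M21 transcripts, of which 26 and 28 had a value. Transcripts with 1 or 2 exons made up 26.9% of the genes that rose and 32.1% of those that fell, against 6.92% of all genes tested, and the median number of exons was 5 in both sets against 9. At least 3 copies of the AU-rich pentamer ATTTA in the 3′ UTR were found in 57.7% and 57.1%, against 40.9%. Median GC content was 51.9% and 54.8%, against 50.1%. These shares are descriptions without a test.

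In INPUT, which holds RNA of all cells of the tissue, the same genes had fold changes of smaller size, except Rara (log2 fold change 0.62 in INPUT and −0.61 in IP). A positive INPUT fold change was found in 25 of the 26 genes that rose (6018 of 12306 over all genes), with a median of 0.35 against 0.89 in IP, and a negative one in 20 of the 24 that fell, with a median of −0.10 against −0.61. The genes were chosen on their IP values, which favours larger values in IP, and the mice behind the IP and INPUT libraries are not matched in the labels. Irs2 was the only one of the 50 called in INPUT (54.4 ± 5.75 CPM in naïve mice and 78.6 ± 5.15 CPM after stress, adjusted p = 0.0339). The difference between the stress effects in IP and INPUT was called in 3 of 13341 genes (0.0225%), of which Zswim6 and Rara are among the 50. In INPUT, Zswim6 measured 38.5 ± 2.705 CPM in naïve mice and 46.2 ± 2.86 CPM in stressed mice (adjusted p = 0.455), and its effect was larger in IP by 1.10 (SE 0.10, adjusted p = 2.23e-05). Rara, which fell in IP, measured 19.2 ± 4.01 CPM in INPUT of naïve mice and 29.3 ± 1.95 CPM in that of stressed mice (adjusted p = 0.121), and its effects in IP and INPUT differed by −1.23 (SE 0.17, adjusted p = 0.0045). The third gene, Axin2, belongs to the Wnt genes set aside. For the other 48 genes a difference between IP and INPUT was not shown.

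**Figure D5:**
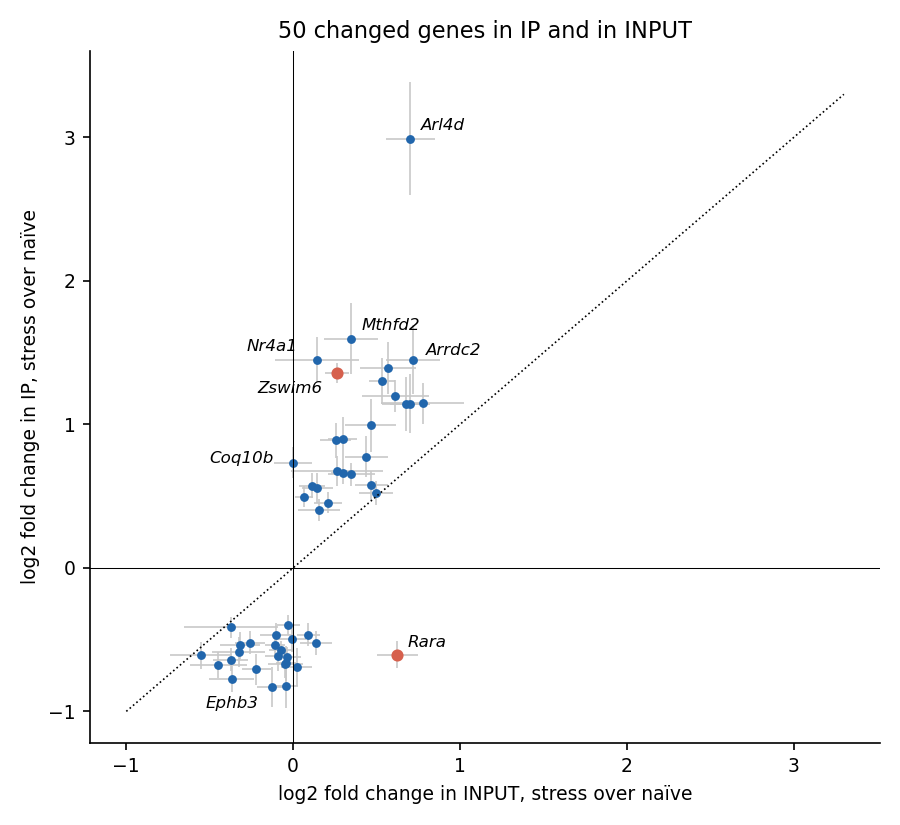
Log2 fold change of stress over naïve in INPUT (x axis) and IP (y axis) for the 50 genes, with standard errors in grey and equal effects on the dotted line. Orange marks Zswim6 and Rara, whose effects differed between IP and INPUT past the adjusted threshold (differences of 1.10 and −1.23), and most genes that fell in IP lie close to 0 in INPUT.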

How the data were processed

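RNA had been sequenced from IP and INPUT of naïve and stressed mice (4 libraries each, 16 in all), and the 8 IP libraries are the basis of the comparison. Each mouse was homogenized by itself, per the methods. Tamoxifen was given 4 weeks before the experiment per the labels, while the methods give another interval. STAR was used by the authors for alignment to mm10 and HTSeq for counting uniquely mapped reads on RefSeq genes (edgeR and limma are also named, without versions), and log2 CPM were deposited, scaled to each library's own total. Removing the constant floor gave whole reads for 100% of the low values (within 0.02 reads). No 2 libraries were identical.

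limma 3.58.1 (R 4.3.3) was used for stress against naïve IP on log2(CPM + 0.1), with a variance trend, over genes with a mean above 1 CPM, and Benjamini-Hochberg adjustment at 0.05 over all genes tested. The IP and INPUT effects were compared in an interaction model of 16 libraries. The fit was tested on simulated data. For marker sums, all 70 labelings gave a two-sided exact permutation p. Gene structures came from GENCODE M21 and promoters from RefSeq (GRCm38.p6), with Python 3.11.15, NumPy 2.4.6 and pandas 2.3.3.

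Named are genes past the threshold outside Sox and Wnt genes, and list members short of it only as paralogs or as the 2 of lowest p in a list. A few genes that are counted are not reported by name here. Members and lists were chosen with earlier results of these data known. Alternatives were pseudocounts of 1 and 0.01, no filter or a mean above 5 CPM, median ratio rescaling, limma-voom, array weights, no variance trend, Xist as covariate, a model of all 16 libraries and each library left out. Sex entered only the fit with Xist as covariate, which called 43 of the 50 genes described. The pairing of IP with INPUT entered no fit. Reads after PCR are not independent molecules, so the floor of 3 reads covers counting error only.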

Additional observations from a re-analysis of the deposited data

Results flagged for a closer look

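Among the genes named, each group of 4 IP libraries was checked for a value far from the other 3 (Dixon's ratio above its 95% critical value). Of 154 groups, 15 stood out, where chance gives about 7.7, or 1 in 20, for independent groups of genes not chosen on these values. Neither condition holds here. The genes were named from the IP comparison, and the same 8 libraries recur for every gene. Whether 15 is more than chance gives was therefore not tested.

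Naïve IP replicate 11 made up 10 of the 15, always towards the stress libraries. Arl4d measured 8.50 CPM in it (other naïve libraries 1.94 to 2.33). It had 20.6 CPM of Arrdc2 (others 9.30 to 10.8), 124 CPM of Ppp1r3g (others 102 to 106), 8.54 CPM of Cdkn1a (others 2.69 to 3.63), 28.0 CPM of Txnip (others 7.86 to 8.82) and 32.4 CPM of Cebpa (others 14.1 to 16.5). It also had 62.7 CPM of Nedd9 (others 49.98 to 50.9), 82.7 CPM of Rhou (others 38.2 to 44.4), 126 CPM of Klf15 (others 79.6 to 84.2) and 43.5 CPM of Ephb3 (others 61.9 to 64.6).

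The others were spread over further libraries. Stress replicate 6 had 165 CPM of Irak2 (others 202 to 205), and stress replicate 5 had 171 CPM of Tiparp (others 125 to 132). Naïve replicate 13 had 56.9 CPM of Zbtb7a (others 47.2 to 48.4), naïve replicate 2 had 59.0 CPM of Zfp36l1 (others 65.8 to 66.7) and naïve replicate 8 had 140.3 CPM of Utp14b (others 101 to 105).

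By limma's interaction term, IP and INPUT differed in the stress effect for Zswim6 (difference of log2 fold changes 1.10), Rara (−1.23) and Axin2 (−0.70).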

How the results depend on the processing

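The count of 55 called genes was within 1.5 times of itself for both other pseudocounts, both other filters, median ratio rescaling, limma-voom and Xist as covariate (45 to 57 genes). It was 143 with array weights, 19 without a variance trend and 124 with all 16 libraries in 1 model, and 17 to 122 with a library left out, the highest without naïve replicate 11. Over 18 alternatives the 50 described genes kept their direction in all 898 values, and 641 of these were past the threshold. In INPUT against IP, 3 genes were called, or 2 to 28 with a library left out (28 without naïve replicate 11 and 5 without stress replicate 15). With a library left out, the stress minus naïve difference of summed markers ran from −4181 to 729.9 CPM for astrocyte markers, from −175 to −75.0 CPM for neuronal, from −14.8 to 11.2 CPM for oligodendrocyte, from −1.18 to 4.79 CPM for precursor, from −1.64 to 4.09 CPM for microglial, from −36.8 to −18.5 CPM for endothelial and mural and from −42.8 to −1.29 CPM for choroid plexus markers (the latter without naïve replicate 2). The neuronal difference of −175 CPM, without stress replicate 15, had an exact permutation p of 0.029. That is the smallest p this test can reach with a library left out, and it was not adjusted for the other sums and fits. The planned edgeR fit and DESeq2 were not run, and limma-voom on the recovered reads was the only count-based fit. No paired analysis was possible because the labels number the libraries from 1 to 16 without repeats and do not say which IP and INPUT libraries share a mouse.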
